A study of Mus musculus with 9 samples.

Results

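This account describes the transcriptome of mouse corneas that lack destrin because of the corn1 mutation of Dstn, with Srf not ablated, set against wild-type (WT) corneas. It rests on 6 of the 9 arrays of the study: the 3 titled corn1_cont (mutant) and the 3 titled WT_Cont (WT). The other 3 arrays, of mutant corneas with Srf ablated in the corneal epithelium, entered only through the estimate of the spread. Each array was hybridised with RNA of a separate pool of 10 corneas taken from 5 mice. All mice of both groups received doxycycline by intraperitoneal injection from postnatal day 28 to day 58 and were 58 days old at collection. Both groups were bred on a background mixed from FVB, Swiss Black, 129, C57BL6/J and A.BY, and their labels name no further allele or transgene. The members are all genes that the array's annotation names singly: 23521 of 41345 rows carried exactly 1 gene symbol, and the brightest row of each gene left 22180 genes.

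Destrin, also called actin depolymerising factor, severs actin filaments and returns their subunits to the monomer pool, and the cornea is a tissue in which the related cofilin does not make up for its loss. Actin monomers bind and hold back coactivators of the MRTF family; when monomers are used up in filaments, these coactivators enter the nucleus and work with serum response factor (SRF) at DNA motifs named CArG boxes, many of them in genes of actin and its partners. The cornea itself is a stratified epithelium that makes keratin 12, over a clear collagen stroma with keratocytes and an inner endothelium, and it is normally free of blood vessels.

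The deposited values are log2 intensities that differ by 1 for each doubling of signal. A gene was called where limma gave a Benjamini-Hochberg adjusted p under 0.05 over all 22180 genes. The median of all rows was 6.77. Background adds to the signal of dim rows, so where the lower group mean lay under that level the fold is given as "at least", and where both means lay under it no fold is given. Where values of both groups stand in parentheses, the 3 WT pools come before the 3 mutant pools. Array medians ran from 6.75 to 6.78, and the correlation over rows was 0.991 to 0.992 within the mutant group and 0.971 to 0.974 between mutant and WT arrays.

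The label of the tissue was checked against marker genes. Krt12, the gene of the corneal keratin, stood at 13.96, 13.96 and 13.93 in the WT pools and at 13.49, 13.54 and 13.56 in the mutant pools, and Aldh3a1, a corneal crystallin gene, at 13.83, 13.86 and 13.88 in WT and 13.38, 13.41 and 13.37 in mutant pools. Both were near the top of the measured range in each pool. Of 7 corneal epithelium markers 5 were called lower, Krt12 and Aldh3a1 among them, and 2 higher. Dsg1a was 5.08-fold lower, while Krt14 and Cldn4 were 2.33-fold and 2.6-fold higher. Of 8 keratocyte markers 4 were lower and 0 higher, with Aldh1a1 4.2-fold lower. Of 5 corneal endothelium markers 4 were lower and 1, Car2, was higher. Dstn was at 12.58, 12.55 and 12.59 in WT and 5.55, 5.80 and 5.54 in mutant pools, so that every array matched its label. Skeletal muscle markers, which would show attached eye muscle, had mean levels under the median of all rows in every pool, 6.06 to 6.25 in WT and 6.01 to 6.09 in mutant pools.

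Markers of other tissues differed between the groups or between pools, though in some panels only part of the members did. The mean level of 9 lens markers was 8.74 to 9.08 in WT and 7.83 to 8.56 in mutant pools, with 5 markers lower and 0 higher. The 5 were crystallin genes, while Bfsp1, Bfsp2, Mip and Lim2 were not called. Cryaa, the gene of alphaA-crystallin, was at 11.93, 11.57 and 12.06 in WT and 11.11, 9.44 and 9.71 in mutant pools. The mean of 7 macrophage markers was 7.0 to 7.17 in WT and 8.25 to 8.92 in mutant pools, and that of 6 blood endothelial markers 6.88 to 6.93 and 8.30 to 8.83. Among the blood endothelial markers 5 were higher and 1 lower, the latter being Kdr, a VEGF receptor gene, which was 1.5-fold lower. The mean of 8 markers of conjunctiva and goblet cells was 7.70 to 7.88 in WT and 8.79 to 9.05 in mutant pools, with 5 markers higher and 0 lower. The goblet cell markers Spdef, Tff1 and Foxa3 were not called. The keratin genes Krt4, Krt19 and Krt13 were 7.84-fold higher, 5.90-fold higher and 1.51-fold higher, the last not called without mutant pool 1 or 3 or WT pool 3, and Agr2, of mucus-secreting cells, was at least 4.51-fold higher. Muc5ac, the gene of the goblet cell mucin, was called higher as well (adjusted p = 0.00619), with all 6 pools under the median of all rows (5.65, 5.80 and 5.78 in WT and 5.98, 6.28 and 6.31 in mutant). Sex-linked genes differed between pools: Xist, transcribed from the inactive X chromosome, was at 12.94, 11.76 and 12.90 in WT and 12.55, 6.12 and 12.36 in mutant pools, and the Y-linked Uty at 4.91, 9.38 and 4.44 in WT and 7.51, 9.64 and 8.23 in mutant pools. Mutant pool 2 thus had Xist under the median of all rows, and WT pools 1 and 3 had Uty under it. In whole corneas a larger number of cells of a type and more RNA per cell cannot be told apart.

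A large share of the transcriptome was called, but most differences were small. Of 22180 genes, 3355 (15.1%) were higher and 3649 (16.5%) lower in the mutant, 31.6% in all. In 9908 genes (44.7%) the 3 mutant pools lay all above or all below the 3 WT pools. The median absolute log2 difference of the called genes was 0.48, and 84.1% of them differed by less than 2-fold. At 2-fold or more the balance tilted upwards, with 674 genes higher (3.04%) and 442 lower (1.99%). The tilt grew with size: 176 genes were at least 4-fold higher and 80 lower, 63 and 19 differed at least 8-fold, and 23 and 5 at least 16-fold. The median log2 difference of all genes was −0.02.

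**Figure D1:**
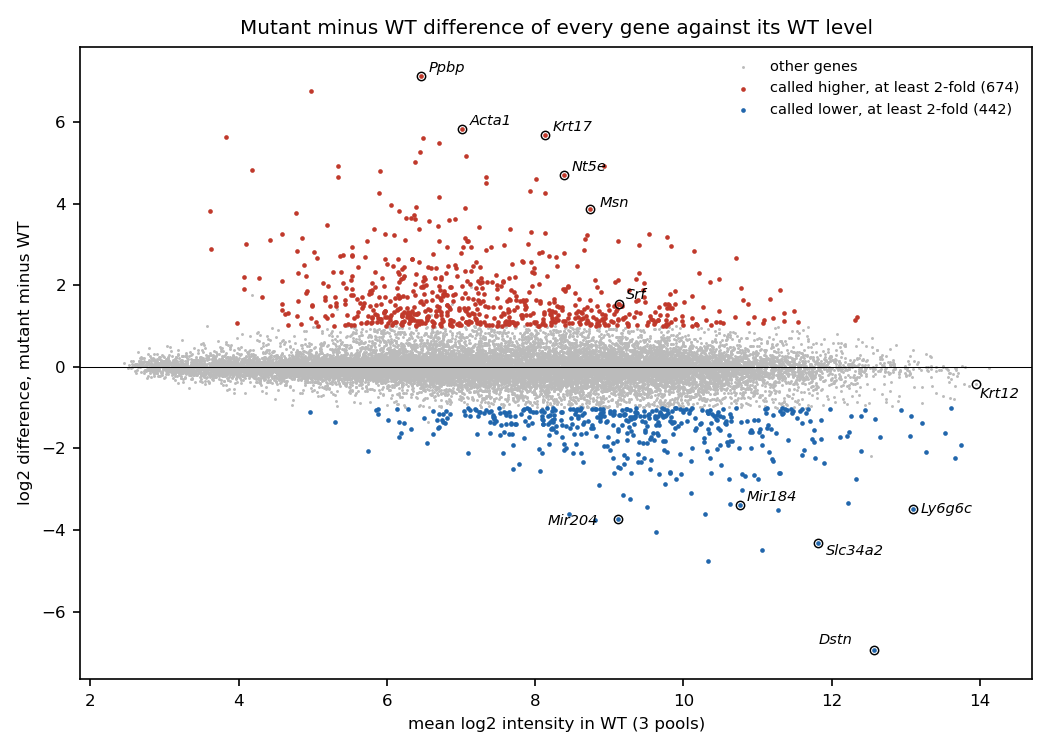
Log2 difference between mutant and WT corneas (vertical axis) against the mean log2 intensity of the 3 WT pools (horizontal axis), 1 point per gene for 22180 genes. Red points are the 674 genes called at least 2-fold higher and blue points the 442 called at least 2-fold lower. Circled genes are named in the text; Dstn is the lowest point and Ppbp the highest.

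The genes that rose most while measured on both sides were of several kinds. Acta1, the actin of skeletal muscle, was 56.6-fold higher, the stress keratin Krt17 51.7-fold higher and Alox15, a lipoxygenase gene, 35.9-fold higher. Nt5e, which encodes the cell-surface enzyme CD73 that makes adenosine from AMP, was at 8.51, 8.27 and 8.41 in the WT pools and at 13.06, 13.14 and 13.09 in the mutant pools. It was 26.1-fold higher (adjusted p = 3.66e-07; difference of 4.70 on the log2 scale, SE 0.18), and every mutant pool was far above every WT pool. Chil1, the gene of a chitinase-like lectin of inflamed tissue, was 25.1-fold higher, with WT pools at 7.19, 7.21 and 7.62 and mutant pools at 12.05, 11.74 and 12.17. Serpina3n, a serine protease inhibitor gene, was 24.2-fold higher, although WT pool 3 stood apart (7.41, 7.59 and 9.05 against 12.69, 12.67 and 12.49). Nppb, the gene of the B-type natriuretic peptide known from stretched heart muscle, was 22.8-fold higher (7.43, 7.44 and 7.15 against 12.31, 11.56 and 11.68).

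Several other genes rose strongly. Igfbp3, an IGF-binding protein gene, was 12.4-fold higher and Pmaip1, which encodes the death-promoting protein NOXA, 12.2-fold higher. Lgi2, of a family of secreted leucine-rich proteins, was 9.90-fold higher, and Krt23 9.67-fold higher. Ptgs2, the gene of the inducible cyclooxygenase, was 9.40-fold higher, with WT pools at 8.65, 8.67 and 8.79 and mutant pools at 11.92, 11.97 and 11.92. Groups clear of each other were a condition for choosing these genes, so the lack of overlap in the plot of the largest differences follows from the choice.

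The genes that fell most while measured on both sides were of mixed kinds. Slc34a2, a phosphate carrier gene, was 19.8-fold lower, Gldc, a subunit of the glycine cleavage system, 11.4-fold lower, Ly6g6c, of the Ly6 family, 11.2-fold lower and Krt10, the keratin of upper skin layers, 10.0-fold lower. Osbpl6, of the oxysterol-binding family, was 10.2-fold lower (adjusted p = 1.49e-07; difference of −3.35 on the log2 scale, SE 0.11), with WT pools at 10.65, 10.71 and 10.54 and mutant pools at 7.22, 7.32 and 7.30. Cyp24a1, the enzyme that breaks down active vitamin D, was 8.52-fold lower (10.13, 10.04 and 10.15 against 6.74, 7.26 and 7.04), and Abcg1, a cholesterol exporter, 6.69-fold lower (10.68, 10.58 and 10.59 against 8.02, 7.6 and 8.01). Ppp1r3c, which targets a phosphatase to glycogen, was 6.75-fold lower, and Adh6a, an alcohol dehydrogenase gene, 7.29-fold lower. Raver2, an RNA-binding protein gene, was 6.29-fold lower, Snx31, a sorting nexin gene, 6.18-fold lower and Paqr5, a membrane progestin receptor gene, 6.07-fold lower. Cbln1, the gene of a secreted synapse organiser, was 6.10-fold lower with an SE of 0.45, which includes the spread of the third group of arrays, since its own groups were tight (9.90, 9.81 and 9.75 against 7.14, 7.08 and 7.42).

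**Figure D2:**
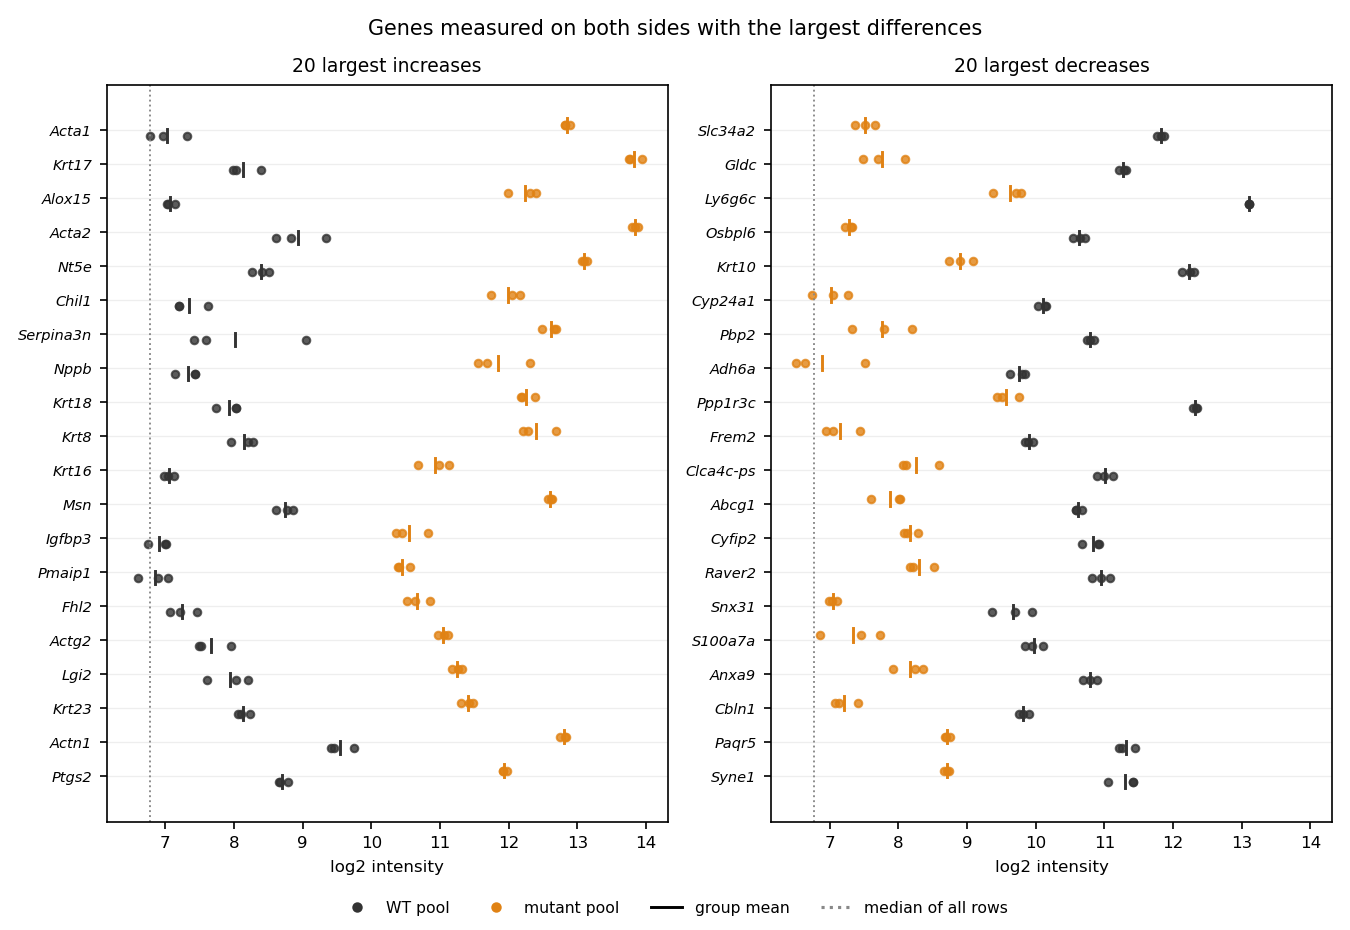
Log2 intensity (horizontal axes) of the 20 genes with the largest increase (left) and the 20 with the largest decrease (right). They were chosen among called genes measured on both sides whose groups do not overlap. Each point is a pool (3 WT in dark grey, 3 mutant in orange), vertical ticks are group means, and the dotted line is the median of all rows. By this choice the pools of the groups lie apart in all 40 genes.

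Beside these single genes, 43 lists of related genes were counted, with 1192 different genes measured. Each list is read against the background of 15.1% higher and 16.5% lower and a median of −0.02. That background includes dim genes, which were called less often. When only the about 12700 genes at or above the median of all rows were fitted, 3177 were higher and 3561 lower. A list of bright genes can therefore exceed the background through its level alone. The plot of the gene lists gives every member, and the lists follow here by theme.

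Within the cytoskeleton, several genes of proteins that bundle or anchor actin filaments rose, while genes of filament branching moved both ways. Of 28 crosslinkers, spectrins and membrane linkers, 12 rose and 4 fell (median 0.04). Msn, the gene of moesin, which ties filaments to the plasma membrane, was at 8.85, 8.77 and 8.61 in WT and 12.61, 12.57 and 12.62 in mutant pools. The pools of each group were close together, and Msn was 14.5-fold higher (adjusted p = 1.1e-06; difference of 3.86 on the log2 scale, SE 0.19). Actn1, the crosslinker alpha-actinin-1, was 9.55-fold higher, the leukocyte bundler Lcp1 5.93-fold higher and filamin A, Flna, 3.81-fold higher. Of 25 genes of the branching Arp2/3 complex and its activators, 7 rose and 7 fell (median −0.03). Its members in the WAVE complex moved in opposite directions: Cyfip2 was 6.35-fold lower and Wasf3 at least 2.81-fold lower, whereas the blood cell form Nckap1l was at least 3.34-fold higher. Hcls1, the blood cell counterpart of cortactin, was 2.02-fold higher. Nckap1l, Hcls1 and Lcp1 are mainly leukocyte genes, and the macrophage marker means given above were higher in the same pools; their part in these results was not tested.

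Some small GTPase genes of the cytoskeleton changed too. Rhob was 2.52-fold lower (adjusted p = 4.84e-06; difference of −1.33 on the log2 scale, SE 0.09), with WT pools at 10.61, 10.68 and 10.46 and mutant pools at 9.27, 9.17 and 9.30. Rnd3 was 2.21-fold higher and the epithelial Rhov 1.64-fold higher. Of 29 tubulin, kinesin and stathmin genes, 11 rose and 3 fell. The beta-tubulin Tubb6 was 7.0-fold higher (8.16, 8.11 and 8.01 against 10.90, 10.98 and 10.82), Tubb2a 2.08-fold higher and Tuba1c 1.72-fold higher, while the microtubule-associated Map2 was 2.16-fold lower. Lamins, nuclear envelope linkers and non-keratin intermediate filaments were split, with 6 higher and 8 lower of 25. Syne1, the giant nesprin that links the nucleus to actin, was 6.04-fold lower (adjusted p = 1.67e-06; difference of −2.59 on the log2 scale, SE 0.14), with WT pools at 11.42, 11.42 and 11.05 and mutant pools at 8.74, 8.66 and 8.71. The cornified envelope linkers envoplakin, Evpl, and periplakin, Ppl, were 1.76-fold lower and 1.72-fold lower. Lmna, the gene of lamins A and C, was 1.85-fold higher.

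CArG boxes near transcription start sites were more frequent in the genes that rose most. RefSeq promoter windows (build GRCm38.p6, 250 bases before to 50 after the start) were matched to 16918 of the genes, and a box of 10 bases, the motif that SRF binds, was searched by letters on both strands. It occurred in 282 genes (1.67%). Of 502 genes at least 2-fold higher with a window, 31 (6.18%) held one, against 36 of 2064 (1.74%) of those higher by less, 183 of 11471 (1.6%) of those not called, 31 of 2558 (1.21%) of those lower by less than 2-fold and 1 of 323 (0.31%) of those at least 2-fold lower. Read the other way, 67 of the 282 genes with a box were called higher (23.8%) and 32 lower (11.3%), against 15% and 17.1% of genes without one. For 3 motifs searched alongside, the share in genes at least 2-fold higher, at least 2-fold lower and all was 11.2%, 8.98% and 8.39% for TGANTCA, the AP-1 site; 1.59%, 1.24% and 1.25% for AACCNGTT, a site of grainyhead-like factors; and 4.38%, 5.88% and 3.72% for TTATGNAA, a site of C/EBP-type factors.

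**Figure D3:**
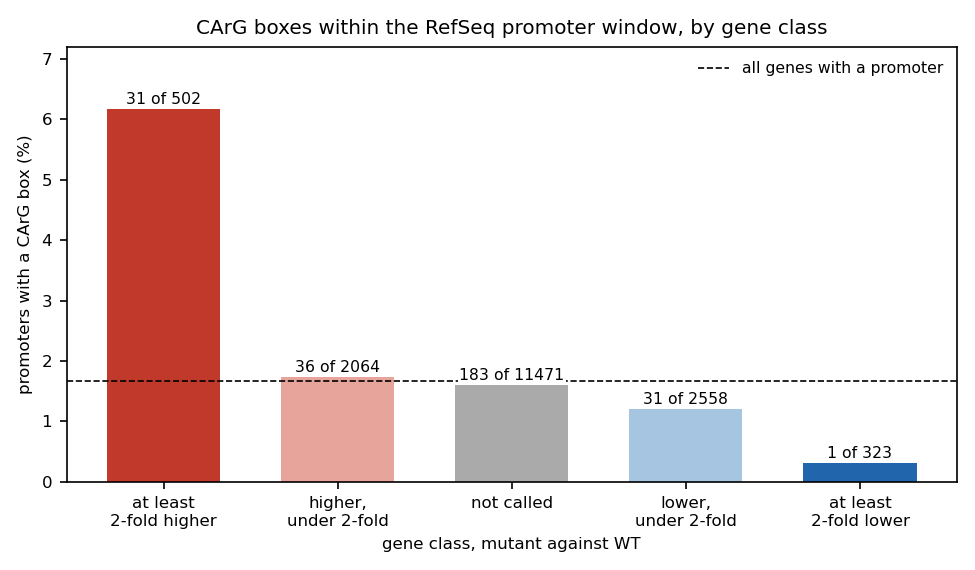
Share of genes (vertical axis, percent) whose RefSeq promoter window holds a CArG box, in 5 classes of genes by their difference between mutant and WT corneas (horizontal axis). Numbers over the bars are genes with a box of all genes with a window, and the dashed line is the share over all 16918; the class at least 2-fold higher stands at 6.18% and the class at least 2-fold lower at 0.31%.

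The windows below were picked from the 31 genes called at least 2-fold higher that held a box. They are those of contractile and cytoskeletal genes, Ppbp, Srf itself and 4 genes of adhesion and signalling. Each runs 5′ to 3′ on the gene's strand with up to 25 bases on each side of the box, the capitals mark the box, and the distance is from its first base to the start site. The sequences are RefSeq's, and a match of letters is a description only.
Ppbp, chr5:90768406-90768465, + strand, box 87 bases upstream: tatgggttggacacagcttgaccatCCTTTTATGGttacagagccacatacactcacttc
Acta1, chr8:123894814-123894873, - strand, box 73 bases upstream: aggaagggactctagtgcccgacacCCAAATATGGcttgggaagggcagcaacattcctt
Fhl2, chr1:43163958-43164017, - strand, box 31 bases upstream: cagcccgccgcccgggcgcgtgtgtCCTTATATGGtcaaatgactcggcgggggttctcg
Myl9, chr2:156775278-156775337, + strand, box 161 bases upstream: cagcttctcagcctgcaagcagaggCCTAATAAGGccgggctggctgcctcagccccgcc
Vcl, chr14:20929148-20929205, + strand, box 227 bases upstream: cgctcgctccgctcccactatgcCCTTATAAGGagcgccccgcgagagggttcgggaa
Cnn2, chr10:79988519-79988578, + strand, box 56 bases upstream: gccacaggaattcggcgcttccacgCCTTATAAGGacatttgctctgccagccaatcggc
Srf, chr17:46556210-46556269, - strand, box 82 bases upstream: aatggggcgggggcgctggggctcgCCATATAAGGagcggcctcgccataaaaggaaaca
Itgb6, chr2:60673709-60673768, - strand, box 50 bases upstream: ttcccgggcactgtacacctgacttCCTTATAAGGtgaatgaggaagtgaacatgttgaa
Rnd3, chr2:51149177-51149236, - strand, box 100 bases upstream: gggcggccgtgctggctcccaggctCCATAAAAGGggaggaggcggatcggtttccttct
Dusp5, chr19:53529038-53529097, + strand, box 82 bases upstream: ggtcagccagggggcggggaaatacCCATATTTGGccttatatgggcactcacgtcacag
Myadm, chr7:3292812-3292871, + strand, box 191 bases upstream: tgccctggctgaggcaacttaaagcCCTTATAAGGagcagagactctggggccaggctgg

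Because these windows were picked only from genes called higher, the rises of their genes follow from the choice. Ppbp, whose product is released by platelets as an attractant of neutrophils, was at 6.62, 6.61 and 6.15 in WT pools, under the median of all rows, and at 13.58, 13.73 and 13.47 in mutant pools, a difference of at least 141-fold. Srf was at 9.23, 8.98 and 9.17 in WT and 10.77, 10.72 and 10.55 in mutant pools, and its window held a second box 62 bases upstream. Vcl, the gene of vinculin at cell adhesions, was 3.68-fold higher (11.31, 11.34 and 11.25 against 13.18, 13.22 and 13.14), and the myosin light chain gene Myl9 4.26-fold higher. Calponin 2, Cnn2, was 3.34-fold higher, and Itgb6, the integrin chain that epithelia make when injured, 2.76-fold higher. Dusp5, a phosphatase that switches off ERK, was 2.11-fold higher, with 2 boxes in its window, and Myadm, a membrane protein gene, 5.59-fold higher. Genes of heart muscle with a box rose too: the atrial light chain Myl7 was at least 14.2-fold higher and the cardiac actin Actc1 at least 5.0-fold higher. Of the 31 genes at least 2-fold higher with a box, 16 were measured on both sides.

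MicroRNA genes were seldom called higher. The array measures transcripts over the locus, not the mature strand, and 400 such genes matched RefSeq hairpins. Of these, 13 were higher (3.25%) and 52 lower (13%), against 15.1% and 16.5% of all genes, and at 2-fold or more 11 were lower and 1 higher. Many are dim: among the 97 whose mean reached the median of all rows, 22 were lower (22.7%) and 5 higher (5.15%). The shares of all genes include dim genes, so they are not a background for these 97. Mature sequences of the genes described are shown with the seed, bases 2 to 8, in capitals. The seed pairs with target messages, and some of these products share it while they differ outside it.
miR-184-3p: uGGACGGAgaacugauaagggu
miR-204-5p: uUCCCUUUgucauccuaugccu
miR-211-5p: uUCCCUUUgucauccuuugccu
miR-31-5p: aGGCAAGAugcuggcauagcug
miR-205-5p: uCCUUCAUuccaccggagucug
miR-200a-3p: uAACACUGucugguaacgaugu
miR-200b-3p: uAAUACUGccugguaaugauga
miR-181b-5p: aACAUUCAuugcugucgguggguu
miR-181a-5p: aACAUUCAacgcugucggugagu
miR-218-5p: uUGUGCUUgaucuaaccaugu
miR-221-3p: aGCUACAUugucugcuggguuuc
miR-222-3p: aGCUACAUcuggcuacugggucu

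Mir184, known as the most abundant microRNA gene of cornea and lens, was at 10.80, 10.74 and 10.74 in the WT pools and 7.08, 7.57 and 7.5 in the mutant pools. It was 10.4-fold lower (adjusted p = 9.98e-07; difference of −3.38 on the log2 scale, SE 0.16). Mir204 was at 9.02, 9.29 and 9.06 in WT and at 5.53, 6.01 and 4.69 in mutant pools, all 3 under the median of all rows, and was at least 13.1-fold lower (adjusted p = 9.58e-06; difference of −3.72 on the log2 scale, SE 0.28). Mir204 lies in an intron of the ion channel gene Trpm3, which was 4.09-fold lower (11.64, 11.70 and 11.55 against 9.55, 9.74 and 9.51). Mir211, whose product has the same seed, was under the median of all rows in every pool and was not called (adjusted p = 0.15), though it was called lower without mutant pool 2. Lens also makes Mir184 and Mir204, and the mean of the lens markers was lower in each mutant pool, as given above. Over the mutant pools, Cryaa was highest in pool 1, Mir184 was lowest in pool 1 and Mir204 was lowest in pool 3. The part of lens tissue in the result was not tested.

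MicroRNA genes known from epithelia were among those called, with smaller differences. Mir31 was 2.06-fold lower (8.78, 8.81 and 9.04 against 7.87, 7.99 and 7.64) and Mir205 1.46-fold lower. Mir200a and Mir200b, neighbours on chromosome 4 whose products hold back the transition to mesenchyme, were 1.58-fold lower and 1.72-fold lower. The 2 copies that give miR-181b were at least 2.65-fold lower (Mir181b-1) and 1.81-fold lower (Mir181b-2); of their neighbours with the same seed, Mir181a-1 was lower with both means under the median of all rows (log2 difference −1.10) and Mir181a-2 was not called (adjusted p = 0.0554), though it was called lower without WT pool 1. Mir218-1 was 1.67-fold lower. Mir221 and Mir222, which share a seed and lie side by side on the X chromosome, were at least 2.24-fold lower and at least 1.66-fold lower. Mir19a, of the growth-linked cluster on chromosome 14, was one of the few called higher, at 5.93, 5.44 and 5.90 in WT and 6.70, 6.41 and 6.52 in mutant pools, all under the median of all rows.

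**Figure D4:**
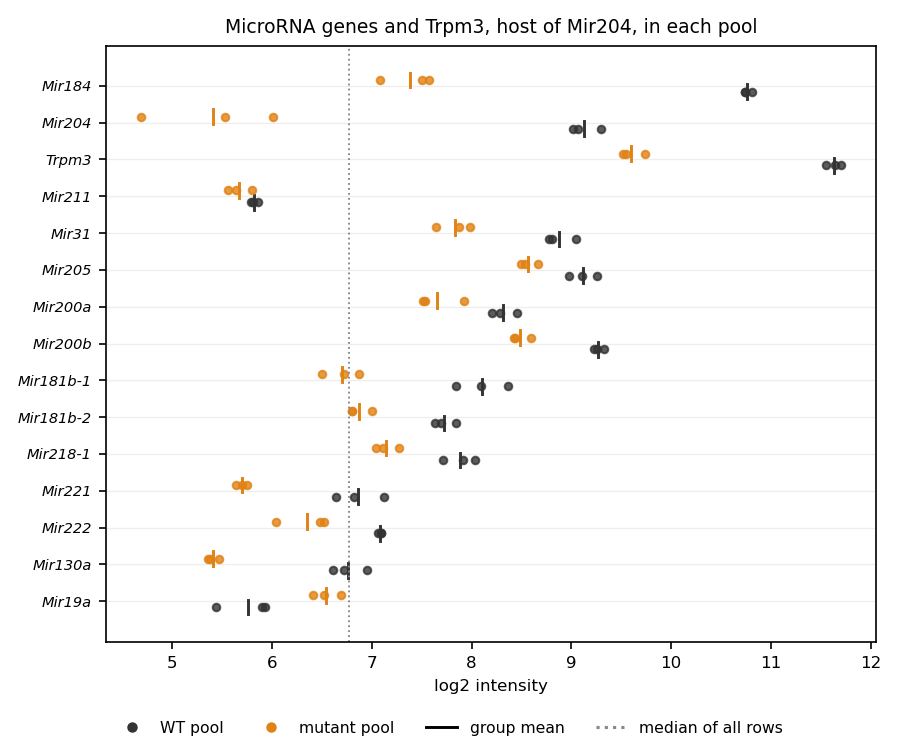
Log2 intensity (horizontal axis) of 14 microRNA genes and of Trpm3, the host gene of Mir204, in each pool (3 WT in dark grey, 3 mutant in orange). Vertical ticks are group means and the dotted line is the median of all rows; Mir184 falls from about the level of its WT pools, 10.74 or more, to 7.57 or less.

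The genes that hold the epithelium to its basement membrane fell more often than they rose. Of 28 basement membrane genes, 11 were lower and 7 higher (median −0.08). Frem2 and Fras1, whose products form 1 complex at the junction of epithelium and stroma, were 6.74-fold lower (9.97, 9.85 and 9.88 against 7.05, 7.44 and 6.94) and 3.50-fold lower (9.84, 9.82 and 9.54 against 7.70, 8.05 and 8.01). Lamb1, a laminin chain, was 3.61-fold lower, nidogen 1, Nid1, 1.75-fold lower, and Col17a1, the hemidesmosome collagen, 1.4-fold lower. Type IV collagen chains of mature membranes were lower: Col4a3 by 1.5-fold, Col4a4 by 1.39-fold, Col4a5 by 1.30-fold and Col4a6 by 1.56-fold, the last not called without mutant pool 1 or 2 or WT pool 2 or 3. Laminin chains made by activated epithelium and by vessels rose, Lamb3 being 2.14-fold higher and the vascular Lama4 at least 4.42-fold higher.

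Junction and transition genes gave a mixed picture. Of 24 genes of the epithelial to mesenchymal transition, 8 rose and 5 fell. Cdh3, the gene of P-cadherin of basal epithelial cells, was 6.08-fold higher (adjusted p = 3.79e-06; difference of 2.60 on the log2 scale, SE 0.17), with WT pools at 7.81, 7.94 and 7.73 and mutant pools at 10.43, 10.35 and 10.52. E-cadherin, Cdh1, was 1.36-fold higher as well. The fibronectin receptor chain Itga5 was 1.97-fold higher and the transcription factor Snai2 1.71-fold higher, while Twist2 was 1.39-fold lower. Of 19 gap junction genes 3 rose (15.8%), near the 15.1% of all genes, led by Gjb2, connexin 26, which was 2.57-fold higher. Gja6 was the one called lower, and its call was lost under most alternatives tried.

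Genes of ion and acid transport, which keep the cornea clear by moving water, also went both ways. Of 26 members 10 rose and 5 fell. Scnn1a, a chain of the epithelial sodium channel, was 2.33-fold lower (9.83, 9.68 and 9.68 against 8.73, 8.32 and 8.48), and Slc12a2, the basolateral chloride carrier, 1.82-fold lower. Slc26a4, the anion exchanger pendrin, was at least 4.72-fold higher and Fxyd5, a partner of the sodium pump, at least 5.33-fold higher. Among 14 carbonic anhydrases, Car13 was 6.93-fold higher (8.53, 8.40 and 8.23 against 11.07, 11.26 and 11.20), Car12 5.40-fold higher and Car2 at least 2.90-fold higher, and 4 were lower.

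Transcription factors of epithelial identity had members called in both directions. Of 28 KLF, GRHL, OVOL and epithelial ETS factors 6 rose and 6 fell, 21.4% each way, against 15.1% and 16.5% of all genes. The list is bright, with mean levels of 8.93 to 9.03 over the pools, so these counts are not read as a shift of the family. Klf7 was 2.58-fold higher and Klf10 2.20-fold higher, and Grhl1 1.64-fold lower. Of 36 SOX and FOX factors 10 rose and 7 fell. Foxn1, the factor of hair and thymus epithelium, was at least 6.78-fold higher (6.70, 6.42 and 6.75 against 9.55, 9.27 and 9.34). Sox9, a factor of progenitor cells in many epithelia, was 2.88-fold higher (9.12, 8.86 and 8.99 against 10.32, 10.65 and 10.58), Foxa1 3.40-fold higher and Sox4 at least 2.23-fold higher. Nuclear receptors were more often lower, 11 against 3 of 41. The thyroid hormone receptors Thra and Thrb were 1.89-fold lower and 1.46-fold lower, Rora 1.76-fold lower and Ppara, which drives the burning of fatty acids, 1.49-fold lower. The orphan receptors Nr4a2 and Nr4a3 went opposite ways, 2.10-fold lower and at least 6.60-fold higher.

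In metabolism, genes of sugar breakdown rose more often than they fell, and genes of fat burning fell more often than they rose. Of 28 genes of glycolysis and lactate export 14 rose and 6 fell (median 0.22). Pfkp, a form of phosphofructokinase, the committing step, was at 8.32, 8.26 and 8.28 in WT and 11.01, 11.07 and 10.86 in mutant pools. It was 6.47-fold higher (adjusted p = 9.11e-07; difference of 2.69 on the log2 scale, SE 0.13), and the liver form Pfkl 2.22-fold higher, while the muscle form Pfkm was 1.82-fold lower. Along the pathway the glucose carrier Slc2a1 was 1.61-fold higher, hexokinase 2, Hk2, 2.15-fold higher, and Tpi1, Pgk1 and Pgam1 1.68-fold, 1.88-fold and 1.89-fold higher. Lactate dehydrogenase A, Ldha, was 1.41-fold higher, and the lactate carriers Slc16a3 and Slc16a1 were 3.05-fold higher and 2.52-fold higher. Among those that fell, Pdk2, which inhibits pyruvate dehydrogenase, was 2.61-fold lower and Pfkfb3, which makes an activator of phosphofructokinase, 1.97-fold lower.

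Of 28 genes of fatty acid oxidation 12 fell and 3 rose (median −0.17). Cpt1a, which admits fatty acids to the mitochondrion, was at 10.96, 10.98 and 10.74 in WT and 9.35, 9.30 and 9.28 in mutant pools, 3.00-fold lower (adjusted p = 9.11e-07; difference of −1.58 on the log2 scale, SE 0.08). Its transport partner Slc25a20 was 1.54-fold lower. The enzymes of the cycle Acadm, Acaa2 and Ehhadh were 1.72-fold lower, 1.73-fold lower and 1.93-fold lower. Citric acid cycle and respiratory chain genes showed small rises, 12 higher and 3 lower of 34, with Idh3a 1.51-fold higher and Sdhd 1.5-fold higher; at 2-fold none of the rises remained.

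Hypoxia-inducible genes rose in 11 and fell in 6 of 23 cases. The collagen-modifying enzymes P4ha2 and Plod2 were 4.51-fold higher (7.65, 7.72 and 7.57 against 9.87, 9.92 and 9.67) and 4.18-fold higher, and Bnip3, a mitophagy gene, and Ero1a, an oxidase of the endoplasmic reticulum, were 2.97-fold higher and 2.26-fold higher. Lipid synthesis was split. Of 27 genes of fatty acid synthesis and elongation 8 fell and 5 rose, with Elovl6 1.85-fold lower, Srebf1, the master factor of lipid synthesis, 1.62-fold lower and Fads3 2.43-fold higher; 5 fell without mutant pool 1 or 3 or WT pool 1. Cholesterol genes were even (4 each way of 21, or 19.05%, near the shares of all genes), with Insig1 1.92-fold lower. Among 32 sphingolipid genes, 9 rose (28.1%) and 8 fell (25%), in a list of mean levels 8.80 to 8.92. Ugcg, which makes glucosylceramide, was 2.45-fold higher.

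Genes of ribosome biogenesis and of the stress response to unfolded protein rose by small amounts, with none called lower in either list. Of 28 genes of ribosome biogenesis 16 rose (median 0.29). Npm1, the nucleolar chaperone nucleophosmin, was 1.81-fold higher (adjusted p = 3.4e-05; difference of 0.86 on the log2 scale, SE 0.08), with WT pools at 10.67, 10.65 and 10.68 and mutant pools at 11.45, 11.48 and 11.64. Myc, which drives this programme, was 1.79-fold higher and Gar1 and Gnl3 1.68-fold and 1.67-fold higher. Of 28 genes of the unfolded protein and integrated stress response 15 rose (median 0.25). Ppp1r15a, which restarts translation, was 1.93-fold higher, and the chaperone Hspa5 1.24-fold higher. No member of either list differed by 2-fold. In each list 1 member was called lower under 2 of the alternatives. Of 33 proteasome genes 8 rose (24.2%) and 1 fell (3.03%), in a list of mean levels 9.845 to 9.98, and 5 rose without WT pool 2. Psmd1, a subunit of the regulatory cap, was 1.32-fold higher, and Psme1, a subunit of the activator PA28 named here after its values were seen, was lower (log2 difference −0.26).

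Of 22 p53 target genes 12 rose and 3 fell. Pmaip1 was the largest, with WT pools at 7.03, 6.90 and 6.60 and mutant pools at 10.41, 10.38 and 10.56. The death receptor genes Fas and Tnfrsf10b were at least 2.52-fold higher and 1.92-fold higher, and Sesn1, a brake on growth signalling, was 1.90-fold lower. FGF ligands, receptors and feedback genes were even, 6 higher (17.1%) and 7 lower (20%) of 35, near the 15.1% and 16.5% of all genes. The fall held for 3 to 4 members without mutant pool 1 or WT pool 1 or 2. Fgf7, the stromal growth factor for epithelium, was at least 2.47-fold higher, and its receptor gene Fgfr2 1.83-fold lower (11.61, 11.52 and 11.49 against 10.69, 10.62 and 10.69), while Fgfr3 was 2.25-fold higher.

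Some guidance cue and nerve-related genes were called, in shares that differed by family. The cornea is densely supplied by sensory fibres whose cell bodies lie outside it, in the trigeminal ganglion. Of 36 ephrin, Eph, Slit, Robo and netrin genes 11 fell and 6 rose. Efna3, the ephrin-A3 gene, was 3.78-fold lower (adjusted p = 8.44e-06; difference of −1.92 on the log2 scale, SE 0.14), with WT pools at 10.68, 10.59 and 10.54 and mutant pools at 8.53, 8.79 and 8.73, and Unc5b, a netrin receptor, 1.82-fold lower. Semaphorins, plexins and neuropilins went both ways, 8 each of 31 (25.8%), in a list of mean levels 8.37 to 8.51. Sema7a, a membrane-anchored semaphorin, was 4.95-fold higher (6.68, 6.81 and 6.90 against 9.20, 9.04 and 9.07) and Plxnd1, a plexin of vessels, at least 2.93-fold higher, whereas Sema5a and Sema3d were 2.35-fold lower and 2.08-fold lower. Of 22 neurotrophin and GDNF family genes 3 rose (13.6%) and 4 fell (18.2%), near the 15.1% and 16.5% of all genes. The receptors Ngfr and Ntrk2 were 2.29-fold lower (9.50, 9.36 and 9.38 against 8.15, 8.47 and 8.04) and 2.03-fold lower, and Sorcs2 3.22-fold higher.

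Sensory channels and purinergic receptors included some of the largest single changes, 12 higher and 5 lower of 33; 3 were lower without mutant pool 2 or WT pool 1. Piezo2, the channel of light touch, was at 9.42, 9.50 and 9.50 in WT and 7.33, 7.25 and 7.17 in mutant pools, 4.67-fold lower (adjusted p = 6.05e-07; difference of −2.22 on the log2 scale, SE 0.10). P2ry14, a receptor of UDP-sugars, was 7.62-fold higher (7.30, 7.48 and 7.44 against 10.79, 10.14 and 10.08) and Trpm6, a magnesium channel, 4.21-fold higher. Of 30 genes of iron and zinc handling 12 rose and 6 fell. Slc39a8, a zinc and manganese importer, was 5.29-fold lower (adjusted p = 3e-07; difference of −2.40 on the log2 scale, SE 0.09), with WT pools at 10.37, 10.56 and 10.58 and mutant pools at 8.09, 8.19 and 8.02; the transferrin receptor Tfrc was 3.78-fold higher, haem oxygenase 1, Hmox1, at least 2.70-fold higher and ceruloplasmin, Cp, 2.18-fold higher.

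Receptors of innate immunity rose widely, with no member called lower. Of 31 Fc and activating receptors of myeloid cells 24 rose and none fell, with a median of 0.87. Their mean level was 6.18, 6.23 and 6.15 in the WT pools and 7.47, 6.92 and 7.19 in the mutant pools, so the groups lay apart and mutant pool 2 was the lowest of its group. Lilrb4a, an inhibitory receptor, was 7.63-fold higher (adjusted p = 6.23e-05; difference of 2.93 on the log2 scale, SE 0.30), with WT pools at 7.14, 7.38 and 6.57 and mutant pools at 10.40, 9.48 and 10.00. Ms4a6d, Ms4a7 and Clec4n, markers of macrophages, were at least 8.69-fold higher, at least 4.84-fold higher and at least 3.75-fold higher. The signalling adaptors shared by these receptors, Tyrobp and Fcer1g, were 3.17-fold higher and 3.11-fold higher, and Clec7a, the receptor of fungal glucans, at least 3.50-fold higher. Only 11 of the rises were called when dim genes were left out, because fewer members were then tested. The macrophage markers Adgre1, Csf1r and Ptprc rose in the same pools (at least 2.67-fold, 2.47-fold and at least 5.29-fold higher), and mutant pool 2 was lowest for each; their part in this result was not tested.

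Of 39 Toll-like receptor, inflammasome and NF-kB genes 25 rose and none fell (median 0.43). The inflammatory caspases Casp1 and Casp4 rose most: Casp1 was at 5.17, 5.0 and 5.40 in WT and 8.66, 8.50 and 8.84 in mutant pools, and Casp4 at 5.59, 5.39 and 5.23 in WT and 8.31, 8.06 and 8.09 in mutant pools. They were at least 11.1-fold higher and at least 6.72-fold higher. Tlr2 was 3.01-fold higher, and the feedback and pathway genes Bcl3, Tnfaip3 and Nfkb2 were 2.96-fold higher, 2.11-fold higher and 1.83-fold higher. For Casp1 and Casp4 every mutant pool was above every WT pool, and mutant pool 2 was the lowest of its group. Of 35 TNF family genes 18 rose and 3 fell (10 rose when dim genes were left out, fewer being tested). Tnfrsf11b, the decoy receptor osteoprotegerin, was 3.96-fold higher (8.44, 8.35 and 8.54 against 10.48, 10.39 and 10.41). Tnfrsf1b was at least 2.38-fold higher and Tnfsf10, which encodes TRAIL, 2.18-fold higher.

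Of 29 IL-6 family, JAK-STAT and SOCS genes 12 rose and 6 fell. Socs3, the feedback inhibitor that this pathway induces, was 2.71-fold higher (7.23, 7.27 and 6.77 against 8.50, 8.44 and 8.63), and Stat4 at least 4.98-fold higher, while the receptor chain Lifr was 2.21-fold lower. Complement genes rose in 12 and fell in 5 of 32 cases, and rose in 7 without mutant pool 1. C4b was at least 3.97-fold higher, and the macrophage products C1qb and C1qa were 3.55-fold higher and 2.09-fold higher. Among 27 selectins, leukocyte integrins and ligands, 11 rose and 4 fell. Icam1, to which leukocytes stick, was 4.74-fold higher (7.12, 7.76 and 7.54 against 9.70, 9.68 and 9.79), Selplg, the selectin ligand of leukocytes, 3.65-fold higher, and Vnn1, a pantetheinase gene, 2.71-fold lower.

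Platelets are the best known source of Ppbp, so their genes were set beside it. A panel of 5 platelet markers had mean levels of 6.79 to 6.91 in WT and 6.90 to 6.99 in mutant pools. Of 19 platelet and megakaryocyte markers 9 rose (47.4%) and 1 fell (5.26%), against 15.1% and 16.5% of all genes. Ppbp is itself a member of this list and among those that rose. Plek was at least 2.59-fold higher, Mmrn1 at least 2.55-fold higher, Selp at least 2.33-fold higher and Pf4, the neighbouring chemokine gene of platelets, at least 2.09-fold higher. Vwf was at least 2.09-fold higher. Leukocytes also make Plek, and endothelium Mmrn1, Selp and Vwf; the values of macrophage and endothelial markers are given above, and their part in these rises was not tested. The integrin chain Itga2b, Gp9 and Treml1, which define platelets, were not called, with Itga2b at 7.51, 7.51 and 7.52 in WT and 7.46, 7.24 and 7.36 in mutant pools. Gp6, the collagen receptor, was the 1 member called lower (log2 difference −0.32), with both means under the median of all rows and its call lost under most alternatives tried. Of 14 eosinophil and basophil markers 3 rose, led by Alox5ap (at least 3.43-fold higher), and of 5 red cell genes only Tfrc, which growing cells of all kinds make. In this last list 2 genes were called higher without mutant pool 1 or without WT pool 3.

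Among secreted and matrix genes, annexins and S100 genes held large changes in both directions. Of 34 S100, annexin and galectin genes 7 rose (20.6%) and 6 fell (17.65%), near the 15.1% and 16.5% of all genes. Anxa3 was 9.11-fold higher (adjusted p = 7.96e-06; difference of 3.19 on the log2 scale, SE 0.23), with WT pools at 9.68, 9.73 and 9.94 and mutant pools at 12.91, 13.06 and 12.95. Anxa9 was 6.14-fold lower (10.89, 10.80 and 10.70 against 8.24, 7.92 and 8.36) and S100a7a, psoriasin, 6.16-fold lower. The neutrophil gene S100a9 was at least 3.97-fold higher. It belongs to a panel of 8 neutrophil markers, of which 4 were called higher and 0 lower. The markers Ly6g, Mpo, Elane and Camp were not called, with every pool under the median of all rows. Of 35 genes of hyaluronan and glycosaminoglycan synthesis 12 rose and 4 fell. Has2, a hyaluronan synthase, was 3.44-fold higher (6.8, 6.70 and 6.86 against 8.47, 9.02 and 8.21), Xylt1, which starts proteoglycan chains, 3.03-fold higher, and Sulf2, which trims heparan sulfate, 1.99-fold higher. Of 31 cathepsin and lysosomal genes 13 rose and 4 fell, with Ctss, a protease of antigen-presenting cells, 2.24-fold higher and Ctsz 2.03-fold higher. Of 26 clotting genes 6 rose and 2 fell; Tgm2, tissue transglutaminase, was 1.96-fold higher and Pros1, protein S, 2.14-fold higher, and coagulation factor VIII, F8, at least 2.31-fold lower.

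The pools of a group were alike for most genes, with a median SD of 0.0749 over the mutant pools and 0.0787 over the WT pools for genes at or above the median of all rows. A few genes varied more. Among mutant pools these were the sex-linked genes, the lens genes Cryba1, Crygs and Cryaa, Cxcl13 (8.97, 7.29 and 9.84), a B cell attractant, and Cpa3 (9.86, 8.12 and 9.64), a mast cell protease gene. Alox12e, an epidermal lipoxygenase gene, was at 9.56, 11.13 and 9.73 in mutant and 6.79, 6.44 and 6.83 in WT pools, with mutant pool 2 the highest; it was at least 11-fold higher. Mutant pool 2 was the lowest for Cxcl13 and Cpa3. Among WT pools, pool 3 stood apart for Serpina3n, for Lcn2, the gene of lipocalin-2 (7.89, 7.63 and 9.04), and for Col1a1, the main collagen of the stroma (12.29, 12.39 and 10.99). Col1a1 was at 12.41, 12.13 and 12.26 in the mutant pools and was not called (adjusted p = 0.406).

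The genes next to Dstn on the chromosome were described because of the mixed strain background. In the gene order of the RefSeq table, Dstn lies on chromosome 2. Of the 20 measured genes within 10 places on either side, 4 (20%) were called, against 25 of 100 (25%) within 50 places, 28.9% of 1863 other genes of the chromosome and 31.7% of all 21991 placed genes. Flrt3, an adhesion protein gene, was at least 2.57-fold higher (5.93, 6.13 and 5.88 against 7.39, 7.19 and 7.44), Snx5, a sorting nexin gene, 1.29-fold higher, and Rrbp1, a ribosome-binding protein gene, 1.16-fold higher, the last call being lost without mutant pool 1 or 3 or WT pool 2 or 3. Dzank1 was at least 1.47-fold lower. Ovol2, an epithelial transcription factor gene near Dstn, stood at 8.21, 8.35 and 8.22 in WT and 8.02, 8.03 and 8.15 in mutant pools and was not called (adjusted p = 0.161).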

How the data were processed

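Per the labels' protocols, RNA of pooled corneas was isolated with Trizol, cRNA was made with the Ambion WT Expression kit, and biotin-labelled cDNA (Affymetrix WT Terminal Labeling kit) was hybridised to single-colour arrays. The table the authors deposited holds log2 intensity values already brought to a common level between arrays; base 2 was inferred from their range (2.14 to 14.3), while the array's genome build and the normalisation are not given in the sources. An intensity is a relative measure whose precision is limited by how many arrays there are. Raw scanner files were not used here.

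Of 41345 rows, 23521 had exactly 1 gene symbol in the platform annotation, 1814 had several and 16010 were not listed. For the 1082 genes with several rows the brightest row was used. No filter on intensity was applied. Of 22180 genes, 21994 were found by Entrez ID in the RefSeq gene table (GRCm38.p6), which gave gene order.

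The contrast of mutant minus WT was fitted with limma 3.58.1 in R 4.3.3 (lmFit, eBayes) over all 9 arrays, so that 3 groups of 3 shared 1 estimate of the spread, and adjusted by the Benjamini-Hochberg method; tests were two-sided and SEs are moderated. The fit was tested on simulated data of the same size. Promoter windows and microRNA sequences came from RefSeq tables; for a gene with several windows, any of them could hold a motif. Windows were searched in Python 3.11.15, and figures were drawn with matplotlib 3.10.9.

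The rule for named genes took Dstn, Srf and Krt12; the 20 genes with the largest increase and the 20 with the largest decrease among called genes with groups clear of each other and a lower mean at or above 6.77, the median of all rows (model, clone, olfactory, vomeronasal, microRNA and small nucleolar RNA symbols left out); the up to 4 called members of a list that differed most; the 10 genes on each side of Dstn; the 10 with the highest SD in each group; and the cell markers. MicroRNA genes, Trpm3, genes with a CArG box and some further list members (among them glycolytic enzymes, type IV collagen chains, Lamb3, Nid1, Col17a1, Cdh1, Acadm, Slc25a20, Thrb, Ppara, Tnfaip3, Nfkb2, Tyrobp, Fcer1g, Clec7a, Vwf and Hspa5) were picked once their values had been seen. The lists and the members were chosen with earlier results of these data known. Nothing in the labels pairs the replicate numbers. The alternatives were quantile normalisation, median centring, brighter genes only, mean of rows, trend and robust options, the 6 arrays alone, a replicate block, a covariate of Y-linked expression, a stricter adjusted p (0.01), a minimum of 2-fold, and each array left out in turn.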

Additional observations from a re-analysis of the deposited data

Results flagged for a closer look

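Rows outside the genes described also differed between the groups. Of 16010 rows with no gene symbol in the platform annotation, 84 were called with levels 2-fold or more above WT in the mutant, and 127 with levels 2-fold or more below it. Of 1814 rows with several symbols, 44 were above WT by that margin and 20 below. These rows entered no comparison, and their transcripts are not named here.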

How the results depend on the processing

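Both counts of called genes (3355 higher, 3649 lower) stayed within 1.5 times under all alternatives except the 2-fold minimum, which kept 674 and 442 genes. Leaving out each array in turn gave 2781 to 3135 higher and 3037 to 3351 lower genes. Quantile normalisation gave 3681 and 3389 and median centring 3589 and 3404, so that higher genes made 52.1% and 51.3% of all calls in place of 47.9%; at 2-fold they made 60.4%. The replicate numbers did not pair the arrays: same-numbered mutant and WT arrays had correlations of 0.0632, 0.0313 and 0.0300 in their deviations from the group means. With the replicate number as a block, 3236 genes were higher and 3451 lower, of which 3134 and 3337 were among those called without it. The Y-linked covariate left 3016 and 3124. Of 368 named genes, 316 were called, 300 of them under each alternative that tested them apart from the stricter thresholds, and 0 changed direction. Of the others called, Col4a6, Rrbp1, Cxcl13, Krt13, Kera, Cd68, Tie1, Ccr3, Gja6 and Gp6 lost their call under several alternatives; the cause was not tested. Eif2s3y, Kdm5d and Uty were called only without WT replicate 2. Leaving out dim genes raised the microRNA genes called lower from 22 of the 97 brighter ones to 28, and the reason was not tested. The share of CArG boxes in genes at least 2-fold higher ran from 5.42% to 6.63% over its alternatives, of which 2, only the first promoter of a gene (5.58%) and only brighter genes with a promoter (5.78%), were chosen after seeing the data. Signal over background limits dim genes, whose folds are lower bounds.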
